A study of Mus musculus with 5 samples.

Results

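The 10 genes described here mark mature, migratory dendritic cells and were measured by RNA sequencing in sorted thymic cells of mice: Ccl17, Ccl22, Fscn1, Marcksl1, Cacnb3, Samsn1, Traf1, Il4i1, Nudt17 and Serpinb6b. They were taken by symbol, and all 10 were among the 18051 genes of the count table. Total body irradiation (TBI) preceded harvest by 4 days in one group of C57BL/6J mice (3 libraries), and the other group was untreated C57BL/6J mice (2 libraries). All mice were 6 to 8 weeks old, and the radiation dose is not given in the sources used here. Thymi were pooled and digested, and cells positive for CD45, CD11c and MHC class II (written MHC11 in the labels) were sorted. No separate pools per replicate are described, so p-values measure the spread between these libraries, which may be technical.

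Dendritic cells that take up antigen and then mature lower their uptake machinery, raise costimulatory molecules and the chemokine receptor CCR7, and migrate towards T cell areas. In the thymus, mature dendritic cells gather in the medulla, where they present self antigen to developing T cells. Their best-known products there are CCL17 and CCL22, the ligands of CCR4, a receptor that draws thymocytes into contact with them. Mature dendritic cells also bundle actin with fascin (Fscn1) into long dendrites.

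The 10 genes did not move as a block. Ccl22, Fscn1, Cacnb3 and Il4i1 were lower in TBI libraries, Marcksl1 was higher, and Ccl17, Samsn1, Traf1, Nudt17 and Serpinb6b did not pass the test. Counts were compared with edgeR's quasi-likelihood test, adjusted by Benjamini-Hochberg over 12046 genes with a threshold of 0.05, and each adjusted p below comes from it unless another tool is named. In that fit 23.1% of all genes passed, 13.3% as higher and 9.79% as lower, against 5 of the 10 genes here, 1 higher and 4 lower. The median log2 fold change (TBI minus untreated) was -0.56 over the 10 genes and -0.01 over all tested genes. The median of the 10 genes turned to 0.04 without untreated replicate 1, and was -1.09 without untreated replicate 2, -1.16 without TBI replicate 1, -0.36 without TBI replicate 2 and -0.34 without TBI replicate 3. Every TBI library lay above both untreated libraries for 1 of the 10 genes and below both for 4, and over all genes groups did not overlap for 56.1%, with 27.8% higher and 28.3% lower. Of the 4 lower calls only that of Cacnb3 remained without untreated replicate 1. Levels are CPM, counts scaled to a common library size by the trimmed mean of M-values, and errors are SD for levels and SE for fold changes, with n = 3 TBI and n = 2 untreated.

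Libraries held 7549053 to 8428589 counts in TBI and 7227000 and 7346330 in untreated mice, so that 1 count equalled 0.124 to 0.145 CPM. The 10 genes took 0.105% to 0.115% of counts in TBI and 0.145% and 0.108% in untreated libraries. A first principal component separated the groups (83.2% of variance), and on the second (10.5%) TBI replicate 1 stood apart, with a score of 27.2 against -13.6 and -16.7. The summed levels of 8 general dendritic cell markers were 37480 to 53540 CPM in TBI and 54940 and 55840 CPM in untreated libraries. Cd74 weighed most in this sum, with means of 26110 CPM in TBI and 27990 CPM in untreated libraries, and did not pass. Flt3 averaged 36.9 CPM in TBI and 328 CPM in untreated libraries. Of the 8 markers 7 were lower in TBI libraries, and no marker was at 0. The lower calls among them numbered 4 without untreated replicate 1 or TBI replicate 2, and 3 without untreated replicate 2. All 8 plasmacytoid markers were lower (440 to 550 CPM in TBI and 3324 and 3394 CPM in untreated libraries), as were 7 of 8 type 1 markers (677 to 852 CPM in TBI and 3180 and 3321 CPM in untreated libraries). For type 2 dendritic cells 4 of 7 tested markers were higher and 1 lower (2863 to 3439 CPM in TBI and 1093 and 1214 CPM in untreated libraries). The higher ones were Itgam, Mgl2, Clec10a and Cd209a, and the lower one was Epcam. Itgam averaged 1176 CPM in TBI and 136 CPM in untreated libraries, and weighed most in the TBI sum. Macrophage markers were higher in 9 of 10 cases (10240 to 11210 CPM in TBI and 1990 and 2350 CPM in untreated libraries) and B cell markers in 4 of 5 (359 to 510 CPM in TBI and 208 and 225 CPM in untreated libraries), where Pax5 was at 0 in both untreated libraries. Thymocyte markers had 1 higher and 4 lower of 9 (1167 to 1372 CPM in TBI and 1465 and 1649 CPM in untreated libraries). Among stromal markers 2 of 5 were higher and 2 lower (19.5 to 35.2 CPM in TBI and 46.1 and 51.7 CPM in untreated libraries), with Pdgfra at 0 everywhere. The lower type 2 call was lost without any single library other than TBI replicate 1, the higher thymocyte call without TBI replicate 3 or either untreated library, and 1 of the lower stromal calls without any of those same 3 libraries. The part of these shifts in the results below was not tested. In such bulk RNA, fewer cells of a type and less RNA per cell cannot be told apart.

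Ccl22 and Fscn1 fell, Ccl17, on the chromosome of Ccl22, did not pass, and Marcksl1 rose. Because these 4 genes cover the results, their promoter sequences are shown. Each runs 5′ to 3′ on the gene's strand from 250 bases before to 50 bases after the RefSeq start (GRCm38.p6), with motif matches in capitals. Ccl22 lies at chr8:94745434-94745733, Ccl17 at chr8:94810203-94810502, Fscn1 at chr5:142960105-142960404 and Marcksl1 at chr4:129513331-129513630, all on the + strand. In the GENCODE M21 models (GRCm38) the genes that passed are Ccl22 at chr8:94745590-94751699 (+ strand), Fscn1 at chr5:142960343-142973185 (+ strand), Cacnb3 at chr15:98630840-98644529 (+ strand), Il4i1 at chr7:44816387-44840809 (+ strand) and Marcksl1 at chr4:129513581-129515985 (+ strand).
Ccl22: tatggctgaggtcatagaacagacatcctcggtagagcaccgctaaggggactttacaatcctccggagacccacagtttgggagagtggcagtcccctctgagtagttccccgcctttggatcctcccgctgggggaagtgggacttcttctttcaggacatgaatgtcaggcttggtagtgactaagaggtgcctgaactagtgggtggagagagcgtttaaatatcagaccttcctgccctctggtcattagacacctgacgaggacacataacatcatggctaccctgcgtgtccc
Ccl17: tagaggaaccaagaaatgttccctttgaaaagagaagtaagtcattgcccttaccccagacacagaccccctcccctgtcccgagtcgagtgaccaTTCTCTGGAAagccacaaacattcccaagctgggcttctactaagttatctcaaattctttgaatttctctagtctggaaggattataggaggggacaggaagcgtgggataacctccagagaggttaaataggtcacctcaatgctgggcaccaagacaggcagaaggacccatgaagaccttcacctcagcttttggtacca
Fscn1: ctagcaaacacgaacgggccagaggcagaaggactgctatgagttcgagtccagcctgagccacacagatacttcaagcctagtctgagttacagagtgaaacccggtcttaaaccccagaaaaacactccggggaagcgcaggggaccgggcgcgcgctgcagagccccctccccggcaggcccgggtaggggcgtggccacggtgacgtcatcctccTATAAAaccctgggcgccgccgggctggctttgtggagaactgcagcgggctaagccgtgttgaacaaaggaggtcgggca
Marcksl1: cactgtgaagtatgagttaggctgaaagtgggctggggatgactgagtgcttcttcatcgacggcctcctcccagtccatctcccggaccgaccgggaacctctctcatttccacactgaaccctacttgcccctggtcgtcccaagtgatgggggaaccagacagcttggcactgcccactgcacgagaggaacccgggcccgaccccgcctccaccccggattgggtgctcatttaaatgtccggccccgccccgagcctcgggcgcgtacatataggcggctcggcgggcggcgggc
Capitals mark TTC and GAA with 4 bases of any kind between them, a spacing bound by STAT6, which starts 154 bases before the start of Ccl17, and TATAAA, which starts 31 bases before that of Fscn1. The STAT6 spacing reads the same on both strands, and 6.98% of 32544 promoters of this length held it, against 13.6% for TATAAA on either strand. Neither of these 2 motifs was found in the Ccl22 and Marcksl1 windows. The NF-kB consensus was in 4.53% of promoters on either strand and in 0 of the 11 windows of the 10 genes (Cacnb3 has 2). GAGGAAGT, a PU.1 motif, was in 3.11% of promoters on either strand and in the Samsn1 and Il4i1 windows. Marcksl1 and Fscn1 windows had a GC content of 63.7% and 61.7%, with 22 and 21 CpG, Ccl22 and Ccl17 windows 53.3% and 48% with 8 and 3 CpG, and the median over all promoters was 53% and 7 CpG.

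**Figure D1:**
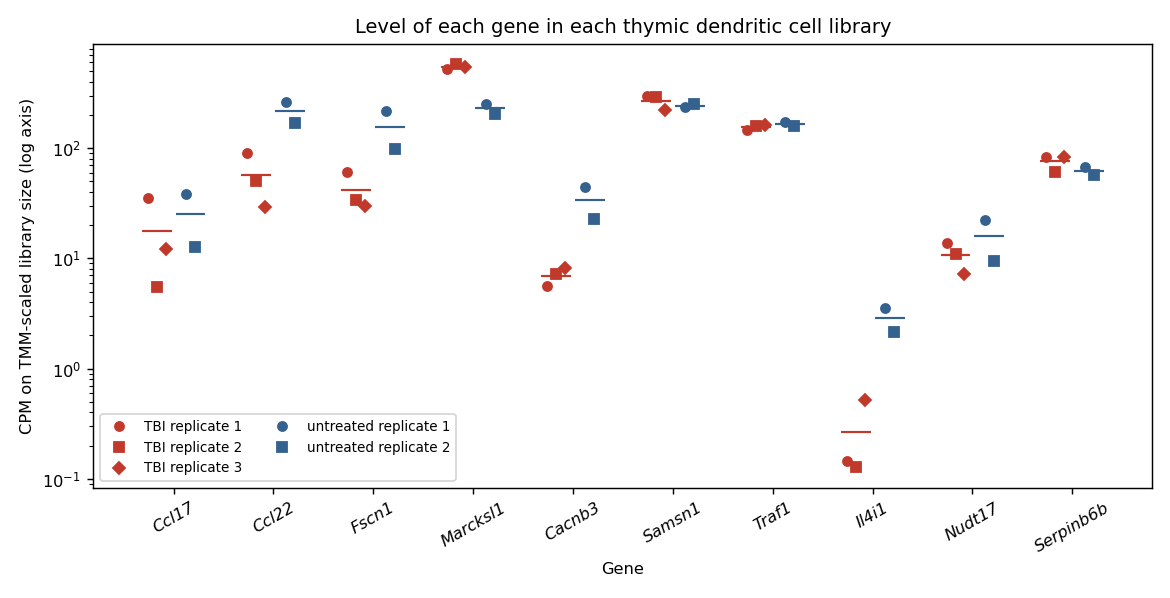
CPM of each gene (log axis; circle, square and diamond for replicates 1, 2 and 3) in the 3 TBI libraries (red) and the 2 untreated libraries (blue), with a line at each group's mean. Groups do not overlap for Ccl22, Fscn1, Marcksl1, Cacnb3 and Il4i1, and overlap for the other 5 genes.

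The chemokines come first. Ccl22 encodes a CCR4 ligand made by mature dendritic cells. It had 90.2, 50.3 and 29.0 CPM in TBI libraries, against 265 and 169.5 CPM in untreated libraries. Every TBI library was below both untreated ones, and TBI replicate 1 was the highest of its group. Ccl22 was 3.85-fold lower in TBI libraries, with a log2 fold change of -1.95 ± 0.40 and adjusted p = 0.00927. Without untreated replicate 1 the log2 fold change was -1.59 and did not pass (adjusted p = 0.0593). Ccl17, the other CCR4 ligand, lies on the same chromosome with 58753 bases between the genes. It had 35.0, 5.45 and 12.3 CPM in TBI libraries, against 38.3 and 12.7 CPM in untreated libraries. Here the groups overlapped, since TBI replicate 1 was close to the higher untreated library and TBI replicate 3 close to the lower one. Its log2 fold change of -0.54 ± 0.70 did not pass (adjusted p = 0.621). Without TBI replicate 1 it was -1.52 (adjusted p = 0.0595), and without untreated replicate 1 the sign turned to 0.47 (adjusted p = 0.807). Ccl22 and Ccl17 together made 125, 55.8 and 41.3 CPM in TBI libraries, against 303 and 182 CPM in untreated libraries.

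Of 3 receptor and processing genes of these chemokines 2 were tested and both were lower. Ccr4 had 41, 25 and 16 counts in TBI libraries and 249 and 213 counts in untreated libraries, a log2 fold change of -2.96 ± 0.38 (adjusted p = 8.75e-04). CCR4 is a T cell and thymocyte receptor, and the sort was for CD11c-positive cells. Which cells carried Ccr4 was not tested. Dpp4, a peptidase that trims CCL22, averaged 108 ± 11.3 CPM in TBI and 181 ± 13.3 CPM in untreated libraries (-0.75 ± 0.14; adjusted p = 0.00639). It did not pass without untreated replicate 2 (adjusted p = 0.110). Ackr2, a decoy receptor for CC chemokines, had 26, 0 and 2 counts in TBI libraries and 0 in both untreated libraries, and was not tested.

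Actin genes went opposite ways. Fscn1 encodes fascin, which packs actin filaments into the dendrites of mature dendritic cells. It had 60.2, 33.8 and 30.1 CPM in TBI libraries, against 215 and 98.1 CPM in untreated libraries. No TBI library reached the lower untreated one, and the untreated libraries lay 2.19-fold apart. Fscn1 was 3.79-fold lower in TBI libraries (log2 fold change -1.92 ± 0.37; adjusted p = 0.00687). Without untreated replicate 1 the value was -1.25 and did not pass (adjusted p = 0.0692). Marcksl1 encodes a membrane protein related to MARCKS that binds actin and calmodulin. It had 520.2, 578 and 542 CPM in TBI libraries, against 254 and 206 CPM in untreated libraries. All TBI libraries were higher than both untreated ones by more than the spread within either group. Marcksl1 was 2.38-fold higher in TBI libraries (log2 fold change 1.25 ± 0.14; adjusted p = 4.40e-04), and passed in each of the 13 alternatives run, with values from 1.02 to 1.41. Its share of the summed CPM of the 10 genes was 41.5%, 48.5% and 49.6% in TBI libraries, against 19.2% and 20.9% in untreated libraries. Without it the sum was 735, 615 and 550.3 CPM in TBI libraries, against 1066 and 779 CPM in untreated libraries.

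Of 12 tested genes for actin bundling and filament assembly 3 were higher and 2 lower, with a median log2 fold change of -0.07. Espn, an actin bundler of the espin family, had 63, 96 and 70 counts in TBI libraries and 6 and 1 in untreated libraries. Its log2 fold change was 4.49 ± 0.60 (adjusted p = 0.00109), 6.15 without untreated replicate 1 and 3.75 without untreated replicate 2. Baiap2, which shapes membrane protrusions, averaged 64.6 ± 15.4 CPM in TBI and 22.0 ± 0.99 CPM in untreated libraries (1.56 ± 0.24; adjusted p = 0.00200). Marcks, the founding member of the MARCKS family, had 277 ± 29.5 CPM in TBI and 272 ± 6.76 CPM in untreated libraries, a log2 fold change of 0.03 ± 0.14 that did not pass (adjusted p = 0.904). Without either untreated library 2 of these genes were higher and 0 lower, and without TBI replicate 2 there was 1 lower.

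The calcium channel subunit gave the lower call that held most widely. Cacnb3 encodes the beta-3 auxiliary subunit, which brings voltage-gated calcium channels to the membrane. Cacnb3 had 5.64, 7.22 and 8.11 CPM in TBI libraries, against 44.7 and 22.9 CPM in untreated libraries. All TBI libraries lay far below the lower untreated one, and in contrast to the chemokines TBI replicate 1 was the lowest. It was 4.82-fold lower in TBI libraries (log2 fold change -2.27 ± 0.32; adjusted p = 0.00149) and passed in all 13 alternatives, with values from -2.67 to -1.71. Of the other channel subunits 8 of 17 were tested, of which 4 were lower and 0 higher, with a median of -1.89. Cacna1s, the pore of the skeletal muscle type channel, averaged 8.77 ± 1.23 CPM in TBI and 35.0 ± 2.63 CPM in untreated libraries (-1.99 ± 0.22; adjusted p = 3.98e-04). Cacnb2, another beta subunit, had 1, 18 and 3 counts in TBI libraries, against 98 and 86 counts in untreated libraries (-3.56 ± 0.75; adjusted p = 0.0103). It moved to -5.31 without TBI replicate 2 and did not pass without untreated replicate 1 (adjusted p = 0.0639). The lower subunits numbered 1 without untreated replicate 1 and 2 without untreated replicate 2.

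Signalling adaptors among the 10 genes had overlapping groups. Traf1, an adaptor of TNF receptor signalling and a target of NF-kB, had 147, 158 and 161 CPM in TBI libraries, against 173 and 157.5 CPM in untreated libraries. All TBI libraries were below the higher untreated library, and TBI replicates 2 and 3 were above the lower one. Its log2 fold change was -0.09 ± 0.13 and did not pass (adjusted p = 0.662). Samsn1, a SH3 and SAM domain adaptor also called HACS1, had 299, 288 and 219.7 CPM in TBI libraries, against 237 and 250 CPM in untreated libraries. TBI replicate 3 was below both untreated libraries and the other TBI libraries above both. The log2 fold change of Samsn1, 0.14 ± 0.16, did not pass (adjusted p = 0.565). Its relatives Sash3 and Sash1 went opposite ways: Sash3 averaged 152 ± 13.4 CPM in TBI and 234 ± 16.3 CPM in untreated libraries (-0.63 ± 0.14; adjusted p = 0.0119), and Sash1 6.90 ± 1.26 and 2.56 ± 0.58 CPM in TBI and untreated libraries (1.42 ± 0.41; adjusted p = 0.0398). Without untreated replicate 1 or 2 neither passed (adjusted p = 0.170 and 0.0828 for Sash3, 0.177 and 0.320 for Sash1). The Sash1 call was also lost with TBI replicate 3 left out (adjusted p = 0.0799), with library size alone (0.0639) or with limma-voom (0.0562). Among 12 TRAF family and partner genes, whose median was -0.23, there were 2 higher and 1 lower calls, and 2 lower calls without TBI replicate 1. Traf4 averaged 42.1 ± 8.498 CPM in TBI and 99.7 ± 11.5 CPM in untreated libraries (-1.24 ± 0.20; adjusted p = 0.00292). The higher genes of this list were Birc3, an inhibitor of apoptosis that binds TRAFs (0.59 ± 0.15; adjusted p = 0.0219), and Tank (0.63 ± 0.17; adjusted p = 0.0287). With library size alone neither passed (adjusted p = 0.105 for Birc3 and 0.122 for Tank), nor without any single library other than TBI replicate 1 (0.0503 to 0.291).

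Enzymes were the least expressed of the 10 genes beside Cacnb3. Il4i1 encodes a secreted oxidase of aromatic amino acids. It had 1, 1 and 4 counts in TBI libraries, against 29 and 17 counts in untreated libraries, or 0.145, 0.127 and 0.523 CPM in TBI and 3.58 and 2.15 CPM in untreated libraries. TBI replicates 1 and 2 were below a floor of 3 counts. Its log2 fold change of -3.35 ± 0.85 passed (adjusted p = 0.0230), but not without untreated replicate 1 (-2.94; adjusted p = 0.254), untreated replicate 2 (-3.67; 0.108) or TBI replicate 2 (-3.02; 0.0529). Without TBI replicate 3, which held 4 counts, the value was -4.25. In the GENCODE M21 models 83.9% of Il4i1 exon bases lie under exons of Tbc1d17 on the opposite strand and 2.38% are shared with Nup62, and the strand setting of the counting is not given, so Il4i1 counts are uncertain. Tbc1d17 averaged 43.7 ± 5.40 CPM in TBI and 47.9 ± 2.81 CPM in untreated libraries and did not pass (adjusted p = 0.642).

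Nudt17, a member of the Nudix hydrolase family, had 13.7, 11.03 and 7.19 CPM in TBI libraries, against 22.1 and 9.49 CPM in untreated libraries. The TBI libraries straddled the lower untreated one, and the untreated libraries differed 2.33-fold. Its log2 fold change was -0.57 ± 0.41 (adjusted p = 0.355), and 0.16 without untreated replicate 1 (adjusted p = 0.895). Of 18 other tested Nudix genes 1, Nudt16, was higher and 0 were lower, with a median of 0.05, and without TBI replicate 1 there were 2 lower. Nudt16, an inosine diphosphatase, averaged 31.5 ± 3.03 CPM in TBI and 18.6 ± 1.64 CPM in untreated libraries (0.76 ± 0.21; adjusted p = 0.0304). Without untreated replicate 1 or 2, TBI replicate 2, or with library size alone, Nudt16 did not pass (adjusted p = 0.286, 0.184, 0.0679 and 0.0831).

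The serpin among the 10 genes did not pass, while 5 of its relatives rose. Serpinb6b, an intracellular serine protease inhibitor of clade B, had 83.9, 61.0 and 82.8 CPM in TBI libraries, against 67.3 and 56.96 CPM in untreated libraries. TBI replicate 2 fell between the untreated libraries, and the log2 fold change of 0.29 ± 0.19 did not pass (adjusted p = 0.325). Of 7 other tested clade B serpins 5 were higher and 0 lower, with a median of 1.75. Serpinb6a, its close paralog, averaged 106.5 ± 0.33 CPM in TBI and 31.7 ± 0.077 CPM in untreated libraries (1.75 ± 0.15; adjusted p = 9.25e-05). Serpinb1a, an inhibitor of neutrophil proteases, averaged 135 ± 28.5 CPM in TBI and 24.2 ± 3.69 CPM in untreated libraries (2.48 ± 0.23; adjusted p = 1.47e-04). Serpinb10, classed as a polymorphic pseudogene in the GENCODE M21 models, rose by 2.78 ± 0.33 on the log2 scale (adjusted p = 5.73e-04). Of the 50-base words in the Serpinb6b transcript 3.12% occur in transcripts of Serpinb6a, Serpinb6c or Gm8436, so few reads of that length could be shared.

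**Figure D2:**
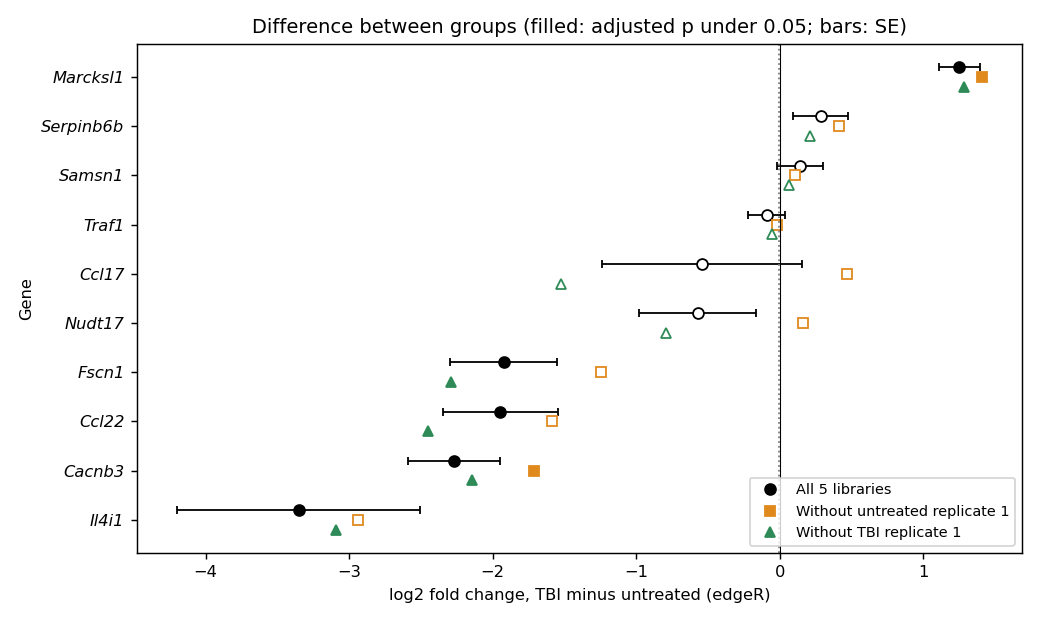
Log2 fold change (TBI minus untreated, edgeR) of each gene with all 5 libraries (black, bar = SE) and without untreated replicate 1 (orange) or TBI replicate 1 (green), filled where adjusted p was under 0.05, with a dotted line at the median of all tested genes. Marcksl1 and Cacnb3 are filled in all 3 fits, and Ccl17 and Nudt17 lie on either side of 0.

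Levels were scaled by exonic length, the merged exons of all transcript models of a gene (GENCODE M21, GRCm38), and ordered between genes. The order depends on that length. It was 4935 bases for Samsn1 and 8819 for Traf1, whose longest coding transcripts have 1890 and 3436 bases. For Marcksl1 both lengths were 1605 bases. Places that rest on Samsn1 or Traf1 are thus uncertain, also where libraries did not overlap. In TBI libraries Marcksl1 was first with 341 CPM per kilobase, followed by Samsn1 (54.5), Ccl17 (34.2), Serpinb6b (33.6), Ccl22 (24.3), Traf1 (17.6) and Fscn1 (13.7). From Samsn1 to Fscn1 each neighbour overlapped the next in its library values, so that part of the order is not resolved. Nudt17 (4.76), Cacnb3 (1.74) and Il4i1 (0.065) followed without overlap. Il4i1 was scaled by all its exon bases, 83.9% of which lie under Tbc1d17 exons, so its place is uncertain in both groups. By merged exon length Marcksl1 (143 CPM per kilobase) also led without overlap in untreated libraries. It was followed by Ccl22 (93.4), Fscn1 (52.0), Ccl17 (49.6), Samsn1 (49.3) and Serpinb6b (27.5). Ccl17 had untreated values of 24.6 and 74.5 CPM per kilobase and overlapped each of the other 4 genes from Ccl22 to Serpinb6b. Its place among them is thus not resolved. Fscn1 (32.57 and 71.46) also overlapped Samsn1 (47.95 and 50.66), so their order is not resolved either. Traf1 (18.7), Cacnb3 (8.43), Nudt17 (7.06) and Il4i1 (0.703) followed, and of these Cacnb3 and Nudt17 overlapped each other.

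Within groups the 10 genes also differed between replicates. Untreated replicate 1 exceeded untreated replicate 2 by more than 1.5-fold for 6 of the 10 genes and was lower by that much for 0. Over all tested genes 4.96% were higher by that margin. The ratio of untreated replicate 1 to 2 was 3.03 for Ccl17, 2.33 for Nudt17, 2.19 for Fscn1, 1.95 for Cacnb3, 1.67 for Il4i1 and 1.56 for Ccl22. The 4 genes outside this set, Marcksl1 (1.24), Serpinb6b (1.18), Traf1 (1.10) and Samsn1 (0.947), stayed closer to 1. Those 6 genes include all 4 that were lower in TBI libraries. Among 45 other tested genes of the mature program 12 (26.7%) were over 1.5-fold higher in untreated replicate 1 and 0 lower. Between these replicates the summed macrophage markers were 2350 CPM in replicate 1 and 1990 CPM in replicate 2, and thymocyte markers 1649 and 1465 CPM. General dendritic cell markers had 55840 and 54940 CPM. Type 1 markers, the only cell type list lower in replicate 1, had 3180 and 3321 CPM. The part of these levels in the ratios was not tested. In the TBI group, replicate 1 exceeded replicate 2 by 6.42-fold for Ccl17, 1.79-fold for Ccl22 and 1.78-fold for Fscn1, while Cacnb3 had a ratio of 0.781.

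**Figure D3:**
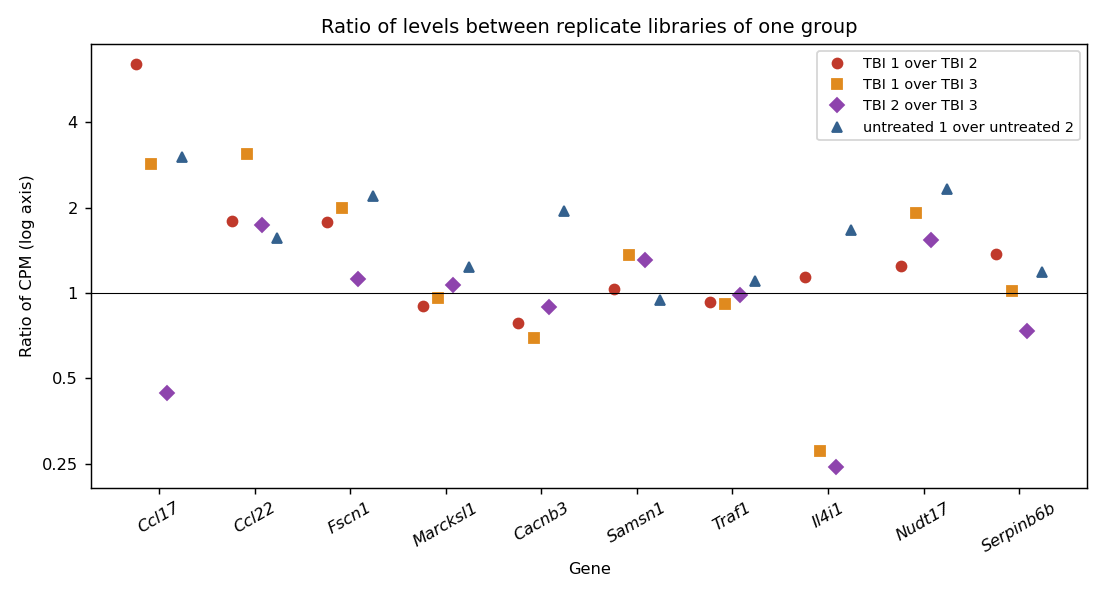
Ratio of CPM between replicate libraries of the same group for each gene (log axis). Ccl17 has the widest spread, from 0.443 to 6.42, and the untreated pair (triangles) lies above 1 for 9 of the 10 genes.

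Each gene was compared with Ccr7, the receptor that mature dendritic cells raise, and with Zbtb46, a transcription factor gene that marks conventional dendritic cells. The libraries also held thymocyte and B cell transcripts, and which cells carried Ccr7 or Zbtb46 was not tested. The differences are therefore not levels per mature dendritic cell. Such differences of log2 CPM are not corrected for length and are read only between libraries. Ccr7 had 707, 518 and 668 CPM in TBI libraries, against 625 and 390.0 CPM in untreated libraries, with overlapping groups, and did not pass (0.31 ± 0.22; adjusted p = 0.340). Zbtb46 had 21.7, 20.1 and 25.6 CPM in TBI libraries, against 56.0 and 51.3 CPM in untreated libraries, and was lower (-1.25 ± 0.19; adjusted p = 0.00200). Relative to Ccr7, Ccl22 stood at -2.97, -3.36 and -4.51 on the log2 scale in TBI libraries, against -1.24 and -1.20 in untreated libraries. Fscn1 relative to Ccr7 was at -3.55, -3.93 and -4.46 in TBI libraries, against -1.54 and -1.99 in untreated libraries. Nudt17 joined Ccl22, Fscn1, Cacnb3 and Il4i1 in being lower in TBI libraries without overlap once set against Ccr7, with -5.66, -5.52 and -6.49 in TBI libraries, against -4.80 and -5.32 in untreated libraries. These 5 lower genes and 1 higher gene, Marcksl1, stand beside 28.6% lower and 10.7% higher without overlap among all tested genes set against Ccr7 (39.2% in either direction). Marcksl1 was at -0.44, 0.16 and -0.30 relative to Ccr7 in TBI libraries, against -1.30 and -0.92 in untreated libraries.

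Against Zbtb46, which was itself lower in TBI libraries, 81.4% of all tested genes were higher without overlap and 3.19% lower (84.6% in either direction). Ccl22 was at 2.04, 1.31 and 0.18 in TBI libraries, against 2.24 and 1.72 in untreated libraries, and the groups overlapped. Fscn1 overlapped too, with 1.46, 0.74 and 0.23 in TBI libraries, against 1.94 and 0.93 in untreated libraries. Cacnb3 and Il4i1 were lower relative to Zbtb46 without overlap, and Marcksl1, Samsn1, Traf1 and Serpinb6b were higher without overlap. The 4 higher genes are thus fewer, as a share of 10, than among all tested genes, and nothing is read from their being higher. Traf1, for example, was at 2.75, 2.95 and 2.64 in TBI libraries, against 1.62 and 1.61 in untreated libraries. With 3 and 2 libraries no exact permutation test of such a value can fall under 0.05, so these values carry no p.

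**Figure D4:**
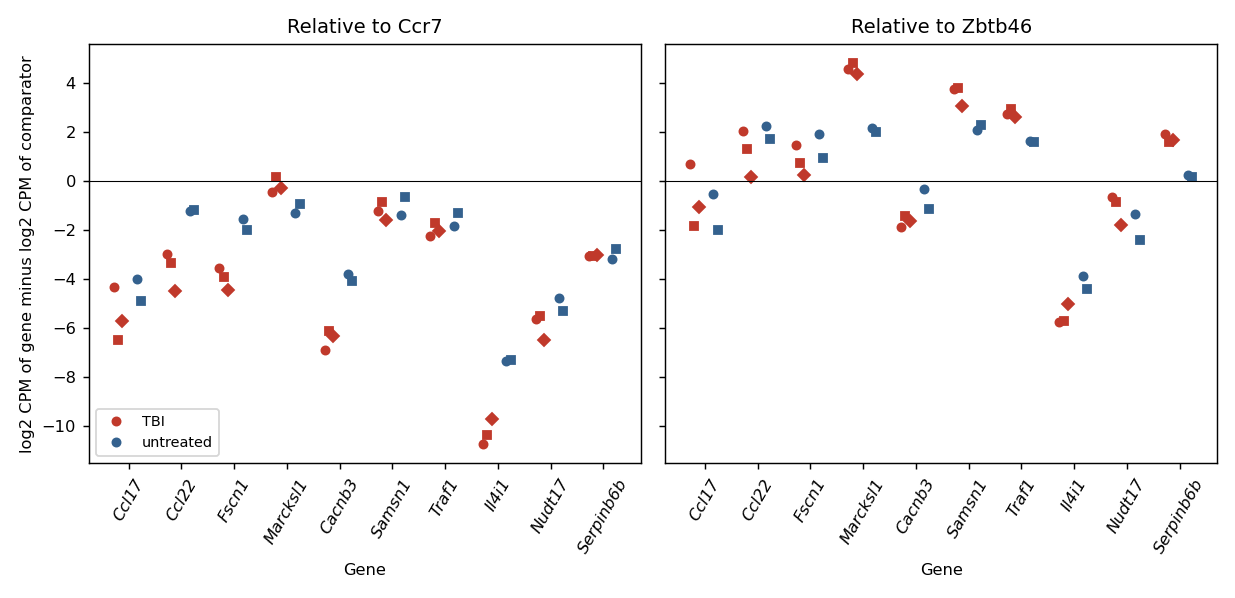
Difference in log2 CPM between each gene and Ccr7 (left) or Zbtb46 (right) in each library, TBI in red and untreated in blue, with circle, square and diamond for replicates 1, 2 and 3. Ccl22 and Fscn1 separate by group relative to Ccr7 and overlap relative to Zbtb46, while Cacnb3, Il4i1 and Marcksl1 separate in both.

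The wider mature program also split. Of 46 other genes listed for it 45 were tested, with 13 higher, 13 lower and 19 below the threshold, and their median log2 fold change was 0.03. These calls became 6 higher and 8 lower with untreated replicate 1 left out, 6 and 10 with untreated replicate 2 left out, and 7 were higher with library size alone. Over all genes there were 1599 higher and 1179 lower calls, 815 and 423 without untreated replicate 1, and 810 and 423 without untreated replicate 2. The summed level of the 46 listed genes was 9380 to 9628 CPM in TBI libraries, against 8396 and 7528 CPM in untreated libraries. Abundant genes weigh most in this sum. Cd83 averaged 3008 CPM in TBI and 1840 CPM in untreated libraries, and Icam1 837 and 320.3 CPM. With 13 genes higher and 13 lower, the sum does not show a rise shared by the listed genes.

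Among 7 migration and adhesion genes 2 were higher and 1 lower. Icam1, the ligand of the integrin LFA-1, averaged 837 ± 34.3 CPM in TBI and 320.3 ± 20.9 CPM in untreated libraries (1.39 ± 0.12; adjusted p = 1.09e-04). Among 11 genes of costimulation, cytokines and NF-kB 4 were higher and 2 lower. Il12b, the p40 chain of interleukins 12 and 23, had 27, 66 and 57 counts in TBI libraries, against 959 and 407 counts in untreated libraries (-3.68 ± 0.41; adjusted p = 3.75e-04), and -2.96 without untreated replicate 1. Cd83, a maturation marker of dendritic cells, averaged 3008 ± 112 CPM in TBI and 1840 ± 10.4 CPM in untreated libraries (0.71 ± 0.10; adjusted p = 0.00163). Relb and Nfkb2, subunits of the NF-kB pathway active in mature dendritic cells, had log2 fold changes of -0.07 ± 0.13 and -0.05 ± 0.22 and did not pass (adjusted p = 0.744 and 0.889). Without either untreated library 1 gene was higher and 0 lower in the first of these groups, and 1 higher and 1 lower in the second. The higher calls were also 1 in the first without TBI replicate 3 and 2 in the second without TBI replicate 2, and the lower call of the first was lost without TBI replicate 2.

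Inhibitory ligands and signal brakes had 2 higher and 2 lower of 7, which became 1 and 1 without either untreated library or TBI replicate 2, and 2 and 1 without TBI replicate 3. Aldh1a2, which makes retinoic acid, averaged 193 ± 40.2 CPM in TBI and 6.80 ± 2.09 CPM in untreated libraries (4.82 ± 0.28; adjusted p = 1.48e-05). Cd200, a ligand that restrains myeloid cells, averaged 14.4 ± 5.44 CPM in TBI and 47.3 ± 0.81 CPM in untreated libraries (-1.72 ± 0.32; adjusted p = 0.00543). On the interleukin-4 axis 2 of 4 were higher and 0 lower, and 1 was higher without either untreated library, without TBI replicate 3 or with library size alone. Il4ra, the receptor chain through which interleukin-4 induces Ccl17 and Ccl22, averaged 458 ± 77.9 CPM in TBI and 218.5 ± 7.36 CPM in untreated libraries (1.07 ± 0.17; adjusted p = 0.00247). Stat6, the transcription factor below it, had 0.12 ± 0.17 and did not pass (adjusted p = 0.651).

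Markers of mixed function fell more often than they rose, with 8 lower and 3 higher of 16 and a median of -1.04. Tbc1d4, a Rab GTPase activating protein, averaged 49.6 ± 6.72 CPM in TBI and 276 ± 46.6 CPM in untreated libraries (-2.48 ± 0.17; adjusted p = 2.76e-05). Zmynd15 averaged 16.96 ± 3.52 CPM in TBI and 79.6 ± 19.1 CPM in untreated libraries (-2.23 ± 0.24; adjusted p = 3.18e-04). Basp1, a membrane protein with a calmodulin-binding effector region like that of MARCKS, averaged 58.8 ± 5.51 CPM in TBI and 140.1 ± 2.57 CPM in untreated libraries (-1.25 ± 0.14; adjusted p = 4.67e-04). Without untreated replicate 1 this group had 6 lower and 2 higher, and without untreated replicate 2 it had 8 and 2.

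**Figure D5:**
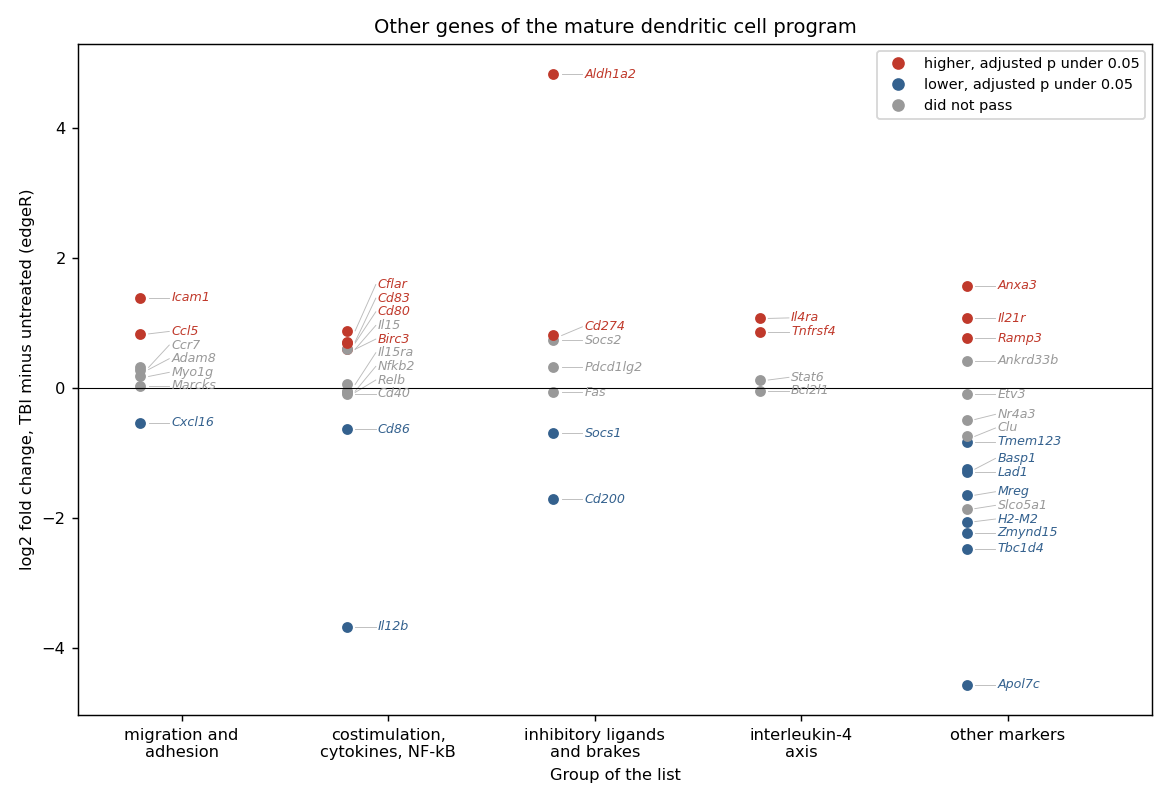
Log2 fold change (TBI minus untreated, edgeR) of the 45 tested other genes of the mature program, by group. Red and blue points passed an adjusted p of 0.05, 13 in each direction, and grey points did not.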

How the data were processed

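Per the labels' design text and the submitters' processing notes, SMART-Seq v4 libraries were sequenced on an Illumina HiSeq, and the authors aligned reads to mm10 with STAR 2.5.2a and counted them with featureCounts 1.6.0. The deposited values are raw whole-number counts per gene symbol, and other steps are not given in the sources used here. The treatment note names a different day, while titles and tags give day 4, which was used.

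The test was that of edgeR 4.0.16, run under R 4.3.3 (scaling by TMM, filterByExpr with minimum count 10 and total 15, robust = FALSE, group as only term). Alternatives used limma-voom 3.58.1 and the DESeq2 1.42.0 Wald test among others. Log2 CPM used a prior count of 2. Functions were tested on simulated data. Promoters came from RefSeq and gene models from GENCODE M21 (both GRCm38, the build also called mm10), matched for all 10 genes. PCR reads carry no molecular identifiers, so counts and floors cover counting error only. Of the deposited symbols 2 occur more than once.

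The 10 genes and the lists were chosen with earlier results of these data known, and lists came from general knowledge of the gene families. From each list up to 3 tested genes with the smallest p could be named, as could the genes of a list with 5 or fewer calls in a direction, and for each of the 10 genes the gene of nearest profile. Ackr2, Marcks, Relb, Nfkb2, Tbc1d17, Cd74 and the marker genes at 0 fall outside this rule and were chosen after their values were seen, as were Ccr7 and Zbtb46 as comparators.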

Additional observations from a re-analysis of the deposited data

How the results depend on the processing

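Over the 10 genes and 13 alternatives, 121 values kept their direction and side of the threshold, 5 lost their call and 3 changed sign, none of the last with a call. The sign changed for Ccl17 (0.47) and Nudt17 (0.16) without untreated replicate 1 and for Samsn1 with library size alone (-0.086), and leaving out single libraries gave -1.52 to 0.47 for Ccl17 and -1.05 to 0.16 for Nudt17. The count of the 10 genes that were lower ran from 1 to 4 with single libraries left out. Over all genes the higher calls ran from 810 to 2148 and the lower from 423 to 1780, and other mature program genes from 6 to 13 higher and 8 to 14 lower. A single remaining untreated library was taken to have the spread of the TBI group. Library size alone gave 2129 lower genes, 7 higher mature program genes and 36.8% of all calls as higher, against 57.6% with TMM. It moved the median of all genes to -0.23. The cause was not tested. Il4i1 was not tested under the stricter filter (1 CPM in 3 libraries, 100 counts). Replicate numbers 1 and 2 occur in both groups but are not described as pairing. Correlations of deviations across genes were -0.044 and -0.094 for same-numbered libraries, and -0.028 to 0.094 for other pairs. With 2 untreated libraries the deviations of one mirror those of the other, so these values cannot decide whether libraries were paired. With the replicate number as a block, 1 of the 10 genes was higher and 4 were lower, among 1493 higher and 1284 lower of all genes. The block lost the calls of Sash1 (adjusted p = 0.0827), Tank (0.0750) and Tnfrsf4 of the interleukin-4 axis (0.0582), by edgeR. Depth limits Il4i1 most, where TBI libraries held 1 to 4 counts. Counts for single lists were added after seeing the data.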

Other observations

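Other enzymes of amino acid breakdown moved in both directions beside Il4i1. Of 9 tested genes 2 were higher and 4 lower, with a median log2 fold change (TBI minus untreated) of -0.67. Kmo, which hydroxylates kynurenine in tryptophan breakdown, averaged 56.1 ± 2.47 CPM in TBI and 332 ± 8.41 CPM in untreated libraries (-2.56 ± 0.13; edgeR adjusted p = 6.41e-06). Ahr, the receptor of several tryptophan products including those formed by Il4i1, averaged 88.6 ± 19.3 CPM in TBI and 235.5 ± 8.88 CPM in untreated libraries (-1.41 ± 0.18; adjusted p = 9.12e-04). Arg1, the arginase of alternatively activated macrophages, had 99, 113 and 205 counts in TBI libraries, against 8 and 7 counts in untreated libraries (4.28 ± 0.46; adjusted p = 3.28e-04). Without either untreated library 1 of these genes was higher and 3 were lower, and without TBI replicate 2 there was 1 higher.

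For each of the 10 genes the closest profile was sought among 7639 or, for Il4i1 and Nudt17, 7640 tested genes (those whose mean log2 CPM reached 4), by the Euclidean distance of centred log2 CPM over the 5 libraries. The closest gene to Fscn1 was Ccl22, itself one of the 10, at a distance of 0.65. Cacnb3 was closest to H2-M2, a nonclassical MHC gene on the list of the mature program, at 0.36. Ccl22 was closest to Tnni2, at 0.43, and Marcksl1 to Atp6v0a1, a subunit of the vacuolar proton pump, at 0.11. Ccl17 had the most distant closest gene of the 10, 5730455P16Rik, at 1.46. The others were closest to genes outside the 10 and the mature program list. These were Kxd1 for Samsn1 (0.03), Mknk2 for Traf1 (0.06), Nup62 for Serpinb6b (0.12), Colq for Il4i1 (0.51) and Slc35a1 for Nudt17 (0.65). With 5 libraries in 2 groups nothing about shared regulation is read from such distances.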
